A study of Mus musculus with 24 samples.

Results

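The genes described here were 8 members of the bone morphogenetic protein (BMP) system, read out of 17 ChIP-seq peak lists from cultured mouse fibroblasts. They were chosen by name from 22225 protein-coding genes of the mm9 annotation: the ligands Bmp2 and Bmp4, the protease Bmp1, the secreted antagonists Grem1, Nog, Chrd and Fst, and the membrane protein Bambi. Each was read over its gene body with 10 kb on each side. The name of the group, ligands and secreted antagonists, does not hold for 2 of them. Bmp1 is a secreted metalloproteinase and not a ligand, and Bambi stays in the membrane.

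BMP ligands are secreted dimers that bind a pair of serine/threonine kinase receptors and switch on Smad1, Smad5 and Smad9, which raise target genes such as the Id family. Secreted antagonists hold the ligand outside the cell, and proteases such as Bmp1 cut chordin and free it again. In connective tissue the balance between ligand and antagonist is known to set how fibroblasts respond to injury and tumours, and Bmp1 is also the enzyme that trims procollagen before fibrils form.

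The cells were mouse embryonic fibroblasts (MEF, labelled C57BL/6, from embryos at E10 to E13), cancer-associated fibroblasts of the MMTV-PyMT mammary tumour model (MMTV-CAF, FVB/NJ) and wound-healing fibroblasts (C57BL/6), taken from the dorsal wound area on day 10. Every culture, wild type included, carried the papillomavirus E6 and E7 genes for immortalisation. Wild-type (WT) lists existed for all 3 types, SG lists came from cells in which Prrx1 was deleted with Cas9 and a guide RNA, and a KI list existed for MEF. A non-targeting guide (SgNS) is given as the WT control of the guide-deleted cells. The labels do not spell out KI, and it was read as the 129S-Prrx1tm1Jfm/Mmmh mutant that the protocol names, in which lacZ is inserted in the Prrx1 homeodomain. Whether an SG culture was 1 clone is not given in the sources used here. Prrx1 is a homeodomain transcription factor of mesenchymal cells, and asking how its loss changes fibroblast chromatin is the purpose of the series.

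There were 7 lists of histone H3 acetylated at lysine 27 (H3K27ac, a mark of active enhancers and promoters), 7 of H3 trimethylated at lysine 4 (H3K4me3, a mark of active promoters) and 3 of Prrx1 binding, in WT cells only. Each group had 1 library, so differences are given as sizes with no p-value and no replicate check. The H3K27ac lists held 29325 to 61603 summits, fewest in MEF KI, where genes with a summit had a median sum of 26.6 against 77.3 in MEF WT. Prrx1 itself kept an H3K4me3 region over its transcription start site (TSS) in all 7 lists, which neither a guide nor an insertion need remove. Of 12 fibroblast markers, 8 to 11 had an H3K4me3 region at a TSS in each list and Lum had none in any list. Of 6 epithelial markers 0 or 1 had one (Cdh1), of 3 immune markers 0, and of 3 endothelial markers 0 or 1 (Kdr). Summed H3K27ac over the endothelial markers, as listed and without centring, was 31.0 (WT), 63.0 (KI) and 155 (SG) in MEF, 105 (WT) and 268 (SG) in MMTV-CAF, and 145 (WT) and 286 (SG) in wound-healing fibroblasts, so it was higher in every deleted list. The epithelial and immune sums were also higher in each SG list than in its WT list and lower in MEF KI, at 7.81 to 256 (epithelial) and 53.7 to 209 (immune) over the 7 lists. The fibroblast sum was 1559 (WT) and 1087 (SG) in wound-healing fibroblasts, 3011 (WT) and 3105 (SG) in MMTV-CAF, and 1842 (WT), 632 (KI) and 1852 (SG) in MEF. The part of these marker shifts in the members' values was not tested.

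The ligand Bmp2 was the least marked member. It lies on the plus strand at chr2:133377895-133388621, and no H3K27ac summit fell in its window in any of the 7 lists. An H3K4me3 region over its TSS was listed only in wound-healing WT, where it spanned 1855 bp at a 3.91-fold enrichment over input and a −log10 p of 6.38. In wound-healing SG the 2 regions in the window were 295 and 601 bp wide and began 226 and 2280 bp inside the gene, so neither reached the TSS. The 3 MEF lists and the 2 MMTV-CAF lists held no region in the window. Bmp2, a ligand known for inducing bone, was thus listed with H3K4me3 in wound-healing fibroblasts alone, at low enrichment. Its promoter is printed because it is rich in CG dinucleotides, the feature common to most promoters with H3K4me3. The 250 bases before the TSS hold 33 CG, against a median of 8 over the 22225 promoters, and 4.49% of promoters hold as many. CG is in capitals in each promoter, all read 5′ to 3′ on the gene's strand from NCBIM37, the assembly that is mm9.
Bmp2 promoter, chr2:133377645-133377894, plus strand: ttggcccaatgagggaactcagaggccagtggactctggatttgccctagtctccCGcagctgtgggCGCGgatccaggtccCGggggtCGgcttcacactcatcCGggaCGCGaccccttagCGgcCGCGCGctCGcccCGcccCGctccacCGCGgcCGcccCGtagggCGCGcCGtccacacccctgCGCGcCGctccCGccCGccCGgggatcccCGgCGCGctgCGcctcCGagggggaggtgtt

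Bmp4, the other ligand and a regulator of stromal and epithelial growth, was marked inside the gene rather than at its start. It lies on the minus strand at chr14:47003195-47010344 with 3 annotated TSS. No list held an H3K4me3 region over any of them, yet every list held 1 or 2 regions between 1353 and 4279 bp from the nearest TSS, inside the gene. The widest region in the gene was 3872 (WT), 2897 (KI) and 2423 bp wide (SG) in MEF. It was 954 (WT) and 3668 bp (SG) wide in MMTV-CAF, and 2331 (WT) and 2199 bp (SG) in wound-healing fibroblasts. The 7 widest regions shared 954 bp, at chr14:47006649-47007602, which are exactly the region of MMTV-CAF WT. The promoter of the first TSS holds 11 CG in 250 bases, close to the median of 8, while the 250 bases at the centre of the shared stretch, in an intron, hold 22, a number reached by 17.0% of promoters. Both are shown for that contrast.
Bmp4 promoter, chr14:47010345-47010594, minus strand: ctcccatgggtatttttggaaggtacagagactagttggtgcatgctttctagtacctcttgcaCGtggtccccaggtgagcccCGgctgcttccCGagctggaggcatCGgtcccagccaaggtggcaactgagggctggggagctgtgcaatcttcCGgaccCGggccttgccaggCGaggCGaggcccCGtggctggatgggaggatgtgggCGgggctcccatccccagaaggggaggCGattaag
Bmp4 centre of the shared H3K4me3 stretch, chr14:47007001-47007250, minus strand: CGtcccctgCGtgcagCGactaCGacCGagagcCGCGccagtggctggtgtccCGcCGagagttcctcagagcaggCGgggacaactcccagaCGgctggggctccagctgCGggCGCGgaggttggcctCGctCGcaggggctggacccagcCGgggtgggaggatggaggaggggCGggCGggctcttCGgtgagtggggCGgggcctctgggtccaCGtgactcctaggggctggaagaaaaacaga

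The H3K27ac summits of Bmp4 lay in the same stretch of the gene, 3040 to 4750 bp from the first TSS. MEF WT held 2 summits with a summed −log10 p of 40.1, KI 1 with 5.33 and SG 4 with 40.5. MMTV-CAF WT and both wound-healing lists held none, and MMTV-CAF SG held 3 with a sum of 112, the highest of the 7 lists. In MMTV-CAF both marks over Bmp4 were therefore larger in the deleted list, the H3K4me3 fold being 9.27 in SG and 3.79 in WT for the widest region. The window also holds the start of Gm15217, an overlapping transcript, so reads could not be given to 1 of these genes by position alone.

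**Figure D1:**
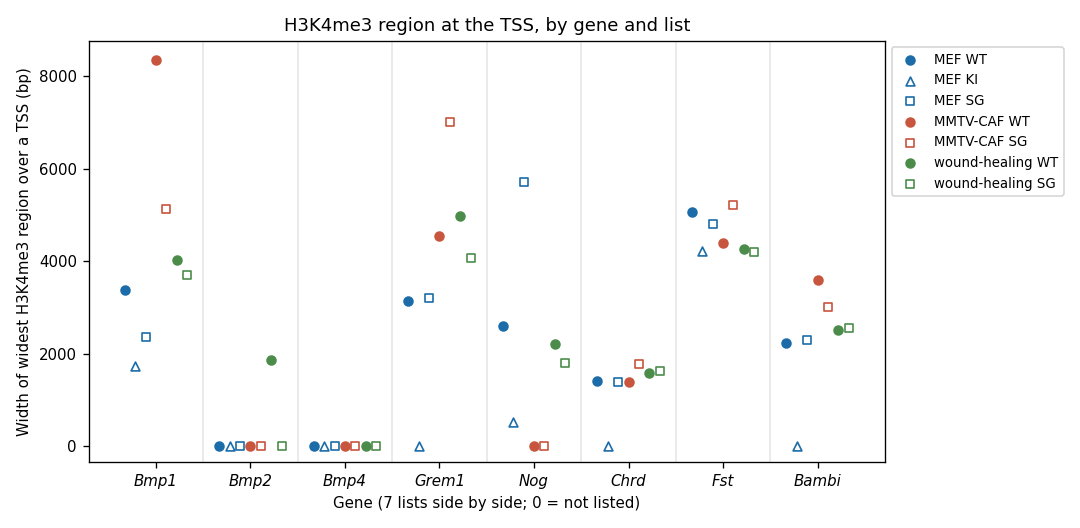
Width in bp of the widest H3K4me3 region over a TSS of each member (y axis), for 7 lists side by side within each gene, with 0 where no region covers a TSS. Fst sits above 4 kb in all 7 lists, Bmp4 at 0 in all 7, and Bmp1 reaches 8349 bp in MMTV-CAF WT.

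Bmp1, which cuts procollagen and chordin, was lower in the deleted list than in WT on both marks in the 4 comparisons once list-wide differences were taken out. The MEF KI and MEF SG comparisons share the 1 MEF WT list, and summed H3K27ac in MEF SG was lower only after that step. With 50 kb on each side little of the H3K27ac difference was left in either MEF comparison, as given below. It lies on the minus strand at chr14:70874364-70920067. In MEF the H3K4me3 region over its start spanned 3378 (WT), 1720 (KI) and 2353 bp (SG). In MMTV-CAF it spanned 8349 (WT) and 5128 bp (SG), and in wound-healing fibroblasts 4025 (WT) and 3693 bp (SG). Each deleted list had a narrower region than the WT list of its type, while fold enrichment was higher in MEF SG (7.48 against 5.56) and wound-healing SG (9.44 against 6.41). The MMTV-CAF WT region was wider than those of 97.2% of the genes with a region in that list, and ran 7443 bp into the gene.

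To set a member against its list, log2 ratios were taken between 2 lists and the median over all genes listed in both was subtracted. For summed H3K27ac that median was 0.59 in wound-healing SG, 0.24 in MMTV-CAF SG, 0.50 in MEF SG and -1.68 in MEF KI. For the width it was 0.18, -0.05, -0.09 and -0.33 in the same order. A width ratio was called at 1.5-fold and a ratio of summed H3K27ac at 2-fold. The width of Bmp1 was lower by this measure in wound-healing SG (-0.30), MMTV-CAF SG (-0.65), MEF SG (-0.43) and MEF KI (-0.64), and passed 1.5-fold in MEF KI and MMTV-CAF SG. Neither passed when widths were summed over the window (-0.53 and -0.49). With a centred log2 of -2.01, Nog was the other member past 1.5-fold lower in MEF KI, where 11.3% of genes passed. At a −log10 p of at least 10 neither gene had a ratio there, since no member had a TSS region in MEF KI. Bmp1 was the 1 member past it in MMTV-CAF SG, where 4.81% of genes passed.

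Summed H3K27ac over Bmp1 in MEF was 79.3 (WT), 13.4 (KI) and 94.5 (SG). Wound-healing fibroblasts gave 109 (WT) and 69.6 (SG), and MMTV-CAF 204 (WT) and 128 (SG). MMTV-CAF WT stood highest, with 12 summits against 2 to 7 in the other lists. After subtraction of the all-gene median the log2 ratios were -1.23 (wound-healing SG), -0.92 (MMTV-CAF SG), -0.24 (MEF SG) and -0.88 (MEF KI), of which the first passed 2-fold, as did 4.28% of genes in that direction. That call was lost on the sums as deposited (-0.65) and on the number of summits (-0.58). The raw sum in MEF SG was above WT, and its negative value rests on the subtraction, since the log2 ratio of the sums as listed was 0.25. With 50 kb on each side the centred MEF SG value was -0.0025 and the MEF KI value -0.12. The MEF KI sum was 2 summits close to the 5 at which the lists start, at 5.92 and 7.49. The latter was nearest to a TSS of Phyhip, a neighbouring gene. MEF KI had no ratio within the gene body or at a −log10 p of at least 10. In wound-healing SG no H3K27ac summit was listed within 2 kb of the first TSS, where WT held 2, and the nearest lay 3103 bp inside the gene.

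Prrx1 summits were counted next. In MEF none of the 8 members had one in its window, where 7.05% of genes did. In MMTV-CAF 2 members had one (Bmp1 with 3 summits, Bambi with 1), against 22.1% of genes, and in wound-healing fibroblasts 3 members had 1 each (Bmp1, Nog, Bambi), against 16.8%. The MEF and MMTV-CAF counts do not stand apart from the background shares, and nothing is read from the wound-healing count, since the Nog summit was near the bottom of its list and 2 members were left at a −log10 p of at least 5. Bmp2, Bmp4, Grem1, Chrd and Fst had no Prrx1 summit in their windows in any list.

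The strongest Prrx1 summit at a member lay past the 3′ end of Bmp1. It was at position 70871154 of chromosome 14 in MMTV-CAF, 3210 bp beyond the gene, with a −log10 p of 34.1 and rank 108 of 8000. In wound-healing fibroblasts a summit at 70871148, 6 bp away, had a −log10 p of 18.7 and rank 186 of 5698. The nearest H3K27ac summits in the same types lay 251 and 202 bp from them. These summits belonged to a site at 70870355 to 70871006 that was listed in 5 of 7 H3K27ac lists, namely MEF KI, both MMTV-CAF lists and both wound-healing lists, at −log10 p of 7.49 to 15.8. It lay nearer to a TSS of Phyhip (12025 bp) than to any of Bmp1, so it may not belong to Bmp1. The first Bmp1 TSS was 49061 to 49712 bp away. An H3K4me3 region at the site in MMTV-CAF WT lay 20144 bp from the nearest Bmp1 TSS. Of the 12 MMTV-CAF WT summits counted for Bmp1, 5 were nearest to Phyhip, the one at this site included. The site was listed in both SG lists of the types that had the Prrx1 summit. The other Prrx1 summits at Bmp1, both in MMTV-CAF, lay 112 bp beyond the 3′ end (−log10 p of 9.26, with an H3K27ac summit 267 bp away) and in an intron (7.12).

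The shared site and the intron site of Bmp1 are shown because they differ in the core letters of homeodomain sites. TAATTA, searched on both strands (it is its own reverse complement), is in capitals. It occurs as 2 overlapping copies at the intron site and not within 100 bp of the stronger, shared site. Over all summits of a list the 201-bp windows that hold TAATTA made up 69.1% of those of MEF, 41.9% of those of wound-healing fibroblasts and 35.5% of those of MMTV-CAF, and 4.58% of promoters hold it, none of them a member's.
Bmp1 shared Prrx1 site, chr14:70871054-70871254, plus strand: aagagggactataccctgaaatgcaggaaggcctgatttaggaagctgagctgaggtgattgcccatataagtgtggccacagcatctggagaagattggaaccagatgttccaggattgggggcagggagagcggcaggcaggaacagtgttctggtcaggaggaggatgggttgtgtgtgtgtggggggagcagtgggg
Bmp1 intron Prrx1 site, chr14:70876032-70876232, plus strand: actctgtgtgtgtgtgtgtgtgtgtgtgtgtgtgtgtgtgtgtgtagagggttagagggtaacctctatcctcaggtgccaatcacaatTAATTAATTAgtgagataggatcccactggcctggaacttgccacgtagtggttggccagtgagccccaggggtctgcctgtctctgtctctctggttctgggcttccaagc

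**Figure D2:**
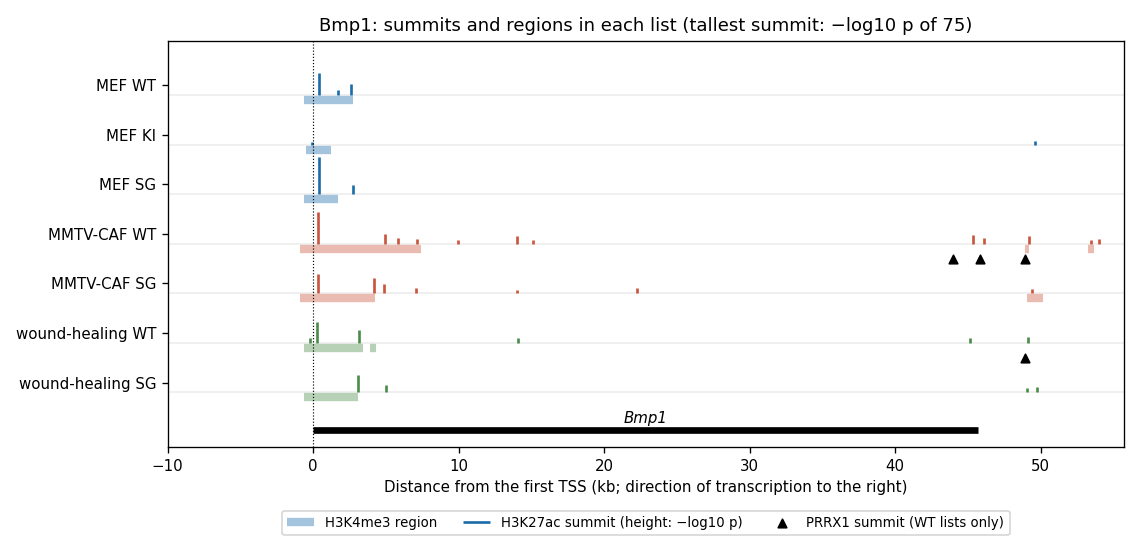
Position in kb from the first TSS of Bmp1 (x axis) of H3K27ac summits (vertical lines, height by −log10 p), H3K4me3 regions (bars) and Prrx1 summits (triangles, WT lists only), 1 row per list. The summits just past the 3′ end lie beside the Prrx1 summits of MMTV-CAF and wound-healing WT, and MMTV-CAF WT holds 12 H3K27ac summits in all.

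Grem1, a secreted antagonist that binds Bmp2 and Bmp4, carried the largest H3K27ac sum of any member in any list, in MMTV-CAF SG. In every other list but MEF KI another member had a larger sum. The gene is at chr2:113586321-113598803 on the minus strand. In MEF the sums were 59.5 over 2 summits for WT, 22.5 over 3 for KI and 130.0 over 4 for SG. In MMTV-CAF they were 145 over 7 for WT and 343 over 11 for SG, and in wound-healing fibroblasts 90.3 over 5 and 84.9 over 4. MMTV-CAF SG stood clear of the rest and was above 94.3% of the genes with a summit in its own list. Centred log2 ratios were -0.68 in wound-healing SG, 0.999 (just under the 2-fold call) in MMTV-CAF SG, 0.63 in MEF SG and 0.28 in MEF KI. Grem1 was thus above the all-gene median in 3 deleted lists and below it in the wound-healing one. The MEF values turned to -0.10 (KI) and -0.05 (SG) within the gene body alone, and the MEF KI sum was below WT before centring (-1.40).

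H3K4me3 at the Grem1 start spanned 3137 (WT) and 3205 bp (SG) in MEF. The spans were 4548 (WT) and 7008 bp (SG) in MMTV-CAF, and 4968 (WT) and 4073 bp (SG) in wound-healing fibroblasts. In MEF KI a region of 2325 bp began 79 bp inside the gene and so missed the TSS. Fold enrichment was highest in MMTV-CAF SG, at 13.8 against 9.94 in WT. The centred log2 of the width was 0.68 there, which passed 1.5-fold as 5.6% of genes did, and -0.47 in wound-healing SG, which did not pass. In MMTV-CAF SG both marks spread over more of the locus, since the H3K27ac summits 1042 to 3525 bp upstream were listed in that list alone.

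Of 16 H3K27ac sites in the Grem1 window, made by joining summits within 500 bp of each other, 1 was listed in all 7 lists, 413 to 1192 bp inside the gene. A site 6171 to 6419 bp upstream was listed in 6, every list but MEF KI. A site 9698 to 9748 bp upstream was listed in both MMTV-CAF lists and wound-healing WT, with a −log10 p of up to 45.4. The nearest Prrx1 summit of wound-healing fibroblasts lay 10088 bp upstream, just outside the window, with a −log10 p of 8.12. Neither that site nor the promoter holds TAATTA. The Grem1 promoter holds 24 CG in 250 bases.
Grem1 promoter, chr2:113598804-113599053, minus strand: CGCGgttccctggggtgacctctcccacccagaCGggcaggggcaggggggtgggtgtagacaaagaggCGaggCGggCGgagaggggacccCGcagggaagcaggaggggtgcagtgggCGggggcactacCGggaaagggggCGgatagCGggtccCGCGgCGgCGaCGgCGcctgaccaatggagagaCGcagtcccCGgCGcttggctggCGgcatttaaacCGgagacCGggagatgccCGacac
Grem1 upstream Prrx1 site of wound-healing fibroblasts, chr2:113608791-113608991, plus strand: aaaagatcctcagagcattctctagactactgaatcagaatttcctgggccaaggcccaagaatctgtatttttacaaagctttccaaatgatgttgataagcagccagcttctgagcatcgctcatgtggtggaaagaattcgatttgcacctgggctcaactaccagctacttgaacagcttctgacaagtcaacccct

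**Figure D3:**
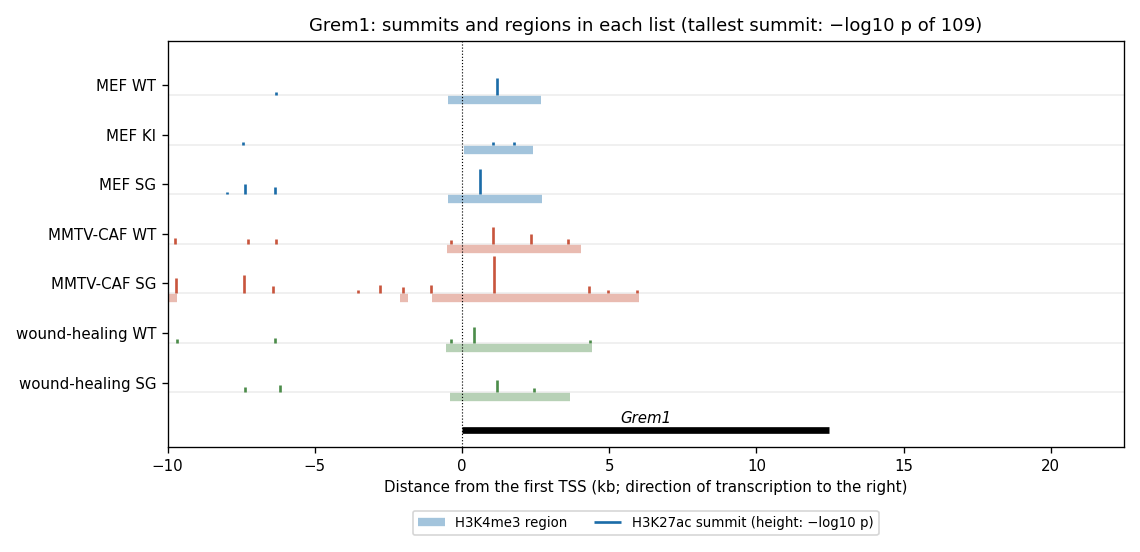
Position in kb from the Grem1 TSS (x axis) of H3K27ac summits (vertical lines, height by −log10 p) and H3K4me3 regions (bars), 1 row per list. The MMTV-CAF SG row holds 11 summits and the tallest one, at a −log10 p of 109, and its H3K4me3 region at the TSS is the widest at 7008 bp.

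Nog encodes noggin, which blocks the receptor-binding surfaces of BMP ligands. The gene is short, at chr11:89161952-89163873 on the minus strand. H3K4me3 over its TSS spanned 2597 (WT), 515 (KI) and 5713 bp (SG) in MEF, and 2211 (WT) and 1800 bp (SG) in wound-healing fibroblasts. Neither MMTV-CAF list held a region there, only regions of 401 to 462 bp at 3173 to 4495 bp downstream of the TSS, past the end of the gene. Nog was thus marked at its start in MEF and wound-healing fibroblasts and not in MMTV-CAF.

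In MEF SG the Nog region passed 1.5-fold (centred log2 of 1.23), in a comparison where 0.899% of genes were higher by that much. MEF WT held 2 separate regions, of 2597 and 2635 bp, over the stretch that MEF SG held as 1 region, and their summed width of 5232 bp differed little from 5713 bp. Summed H3K27ac was 49.3 in MEF WT, 152 in SG, 24.9 in wound-healing SG and 14.9 in MMTV-CAF WT. It was not listed in MEF KI, MMTV-CAF SG or wound-healing WT. Nog (1.13) and Bambi (1.19) were the 2 members more than 2-fold higher in MEF SG after centring, as were 4.47% of genes. The Nog call was lost on the number of summits (4 in both lists) and the Bambi call on the gene body alone (0.68). The Prrx1 summit at Nog, in wound-healing fibroblasts, lay 422 bp upstream of the TSS inside the H3K4me3 region. It was weak, at a −log10 p of 3.66, under the 5 at which the H3K27ac lists start, and at rank 5497 of 5698, with no H3K27ac summit within 500 bp. It is printed because it is a member's Prrx1 summit at a promoter, and it holds no TAATTA.
Nog upstream Prrx1 site, chr11:89164195-89164395, plus strand: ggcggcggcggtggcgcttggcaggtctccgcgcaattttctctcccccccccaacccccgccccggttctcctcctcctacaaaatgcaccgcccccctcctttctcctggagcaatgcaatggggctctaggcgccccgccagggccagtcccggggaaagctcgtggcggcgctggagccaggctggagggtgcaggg

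Chrd encodes chordin, the antagonist that Bmp1 cuts. The gene lies at chr16:20733200-20742457 on the plus strand. H3K4me3 over its start spanned 1410 (WT) and 1381 bp (SG) in MEF, 1388 (WT) and 1766 bp (SG) in MMTV-CAF, and 1589 (WT) and 1617 bp (SG) in wound-healing fibroblasts. MEF KI held none. Fold enrichment ran from 4.34 (MEF SG) up to 11.6, the value of MMTV-CAF SG. All these regions were narrow for their lists, between the percentiles 8.99 and 30.0 of width. Summed H3K27ac was 108 (WT), 13.0 (KI) and 142 (SG) in MEF, 74.5 (WT) and 87.2 (SG) in MMTV-CAF, and 64.2 (WT) and 97.2 (SG) in wound-healing fibroblasts. In the 3 SG comparisons the centred log2 ratios were -0.10, -0.01 and 0.01 over the gene and 10 kb on each side, and in MEF KI the value was -1.37. The MMTV-CAF SG value changed with the processing, to 1.02 within the gene body alone and to -0.88 with lists of equal size. Chrd and Bmp4 (-1.23) were more than 2-fold lower in MEF KI after centring, as were 11.7% of genes, and with 50 kb on each side Bmp4 turned to 0.85 and Chrd was at -0.95. Bmp4 had no ratio at a −log10 p of at least 10, and Chrd none within the gene body. The site listed in all 7 lists lay 6285 to 7184 bp upstream, nearer to a start of Thpo (3785 bp) than to that of Chrd, so it may not belong to Chrd. It held the 1 MEF KI summit, so the MEF KI ratio rests on it, and the summit at the Chrd start (29.5 in MEF WT) was not listed in KI. In MMTV-CAF the summit at the start was 19.5 in WT and 46.1 in SG. The highest summit at the upstream site was 55.0 in WT and 18.8 in SG.

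Fst encodes follistatin, which binds activins more tightly than BMPs. On the minus strand at chr13:115242470-115249159, its start carried an H3K4me3 region over 4 kb in all 7 lists. The widths were 5052 (WT), 4221 (KI) and 4799 bp (SG) in MEF, 4396 (WT) and 5207 bp (SG) in MMTV-CAF, and 4265 (WT) and 4189 bp (SG) in wound-healing fibroblasts. Regions over 4 kb made up from 3.57% (MEF KI) to 28.9% (MMTV-CAF WT) of the genes with a region, and the width of Fst lay between the percentiles 77.0 (MMTV-CAF WT) and 97.3 (MEF KI) of its lists. No centred log2 ratio of the width between a deleted list and WT passed 1.5-fold. Its promoter holds 32 CG in 250 bases, and 5.17% of promoters hold as many.
Fst promoter, chr13:115249160-115249409, minus strand: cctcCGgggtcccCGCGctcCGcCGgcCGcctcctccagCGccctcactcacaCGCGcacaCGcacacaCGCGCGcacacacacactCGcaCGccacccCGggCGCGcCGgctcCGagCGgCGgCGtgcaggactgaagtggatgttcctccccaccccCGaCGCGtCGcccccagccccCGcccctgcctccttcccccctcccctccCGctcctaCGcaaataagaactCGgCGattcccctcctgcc

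H3K27ac at Fst varied more than H3K4me3. The sums were 90.0 (WT), 22.3 (KI) and 105 (SG) in MEF and 21.4 (WT) and 118 (SG) in MMTV-CAF. Wound-healing WT held no summit, and wound-healing SG had a sum of 53.6. In MMTV-CAF the deleted list was higher by a centred log2 of 2.22, the largest value of any member between a deleted and a WT list. It fell to 1.32 on the number of summits and had no ratio with lists of equal size, where the WT summits drop out. Fst was the 1 member past 2-fold higher there, as were 7.17% of genes. In MEF the values were -0.33 (KI) and -0.28 (SG), and the MEF SG sum was above WT before centring (0.22). On the number of summits the MEF values were -1.585 (KI) and 0.415 (SG). MEF KI held 1 summit, 11831 bp from the first TSS, and none within 2 kb of that TSS, where WT held 2. Beside MEF KI, the WT lists of MMTV-CAF and wound-healing fibroblasts were the ones low in H3K27ac at Fst.

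Bambi encodes a membrane protein shaped like a BMP receptor without the kinase, which dampens the signal. The gene is at chr18:3507955-3516402 on the plus strand. H3K4me3 over its start spanned 2233 (WT) and 2289 bp (SG) in MEF, 3590 (WT) and 3005 bp (SG) in MMTV-CAF, and 2516 (WT) and 2559 bp (SG) in wound-healing fibroblasts. In MEF KI a region of 1179 bp began 42 bp inside the gene. Summed H3K27ac was 22.6 (WT) and 72.7 (SG) in MEF with no summit in KI, 98.3 (WT) and 73.9 (SG) in MMTV-CAF, and 36.9 (WT) and 43.0 (SG) in wound-healing fibroblasts. Both of its sites lay within 632 bp of the TSS. The MEF SG and MMTV-CAF WT sums were the high ones of their types. The Prrx1 summits at Bambi lay 62 bp upstream of the TSS in wound-healing fibroblasts (−log10 p of 5.39, an H3K27ac summit 352 bp away) and in an intron 1268 bp inside the gene in MMTV-CAF (5.18). Both lay inside the H3K4me3 region of the same type.

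**Figure D4:**
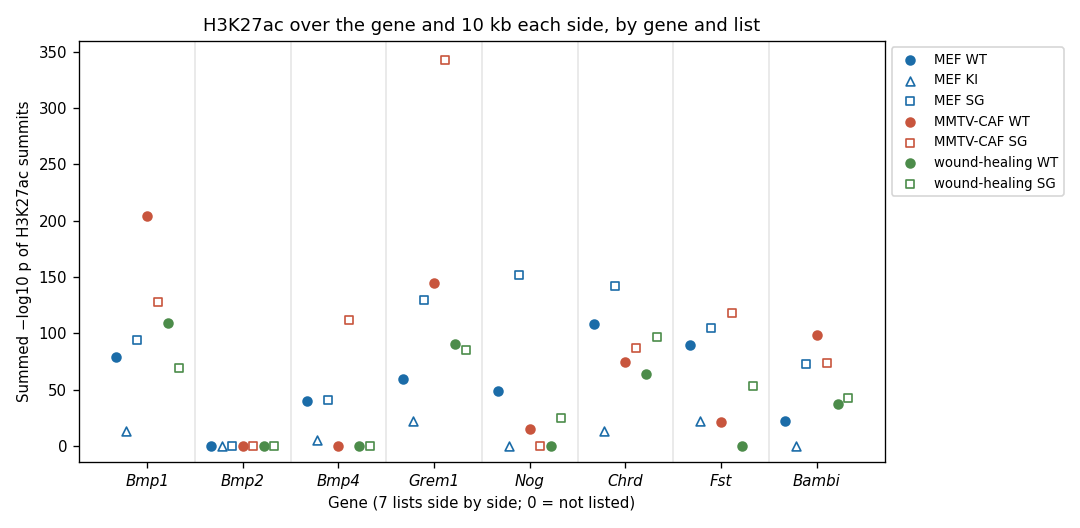
Summed −log10 p of H3K27ac summits over each member and 10 kb on each side (y axis), for 7 lists side by side within each gene, with 0 where no summit was listed. Grem1 in MMTV-CAF SG is the highest point at 343, Bmp2 is at 0 in all 7 lists, and the MEF KI points lie at or below 22.5.

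Across the 8 members an H3K4me3 region covered a TSS of 6 (WT), 3 (KI) and 6 (SG) members in MEF, of 5 in each MMTV-CAF list, and of 7 (WT) and 6 (SG) in wound-healing fibroblasts. In MEF KI the members listed in WT and not in KI were Grem1, Chrd and Bambi for H3K4me3, where 22.6% of listed genes were so, and Nog and Bambi for H3K27ac, where 17% were. Only Chrd of the former 3 had no region within 1 kb of a TSS. In MMTV-CAF SG the H3K27ac of Nog was no longer listed (2.79% of listed genes) and that of Bmp4 was newly listed (10.7% of genes without a summit in WT). In wound-healing SG the H3K27ac of Nog and Fst was newly listed (13.1%), and the TSS region of Bmp2 was no longer listed (2.42%).

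The members did not move in one direction in the deleted lists. The median centred log2 of summed H3K27ac over the members listed in both lists was -0.52 in wound-healing SG (4 members), -0.01 in MMTV-CAF SG (5), -0.10 in MEF SG (7) and -0.88 in MEF KI (5), where the median over all genes is 0 by construction. For the H3K4me3 width the medians were -0.26 (6 members), 0.30 (5), 0.09 (6) and -0.64 (3) in the same order. The MEF KI lists held the fewest H3K27ac summits (29325) and H3K4me3 regions (13125) of the 7 for each mark, and their part in the low MEF KI values was not tested.

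**Figure D5:**
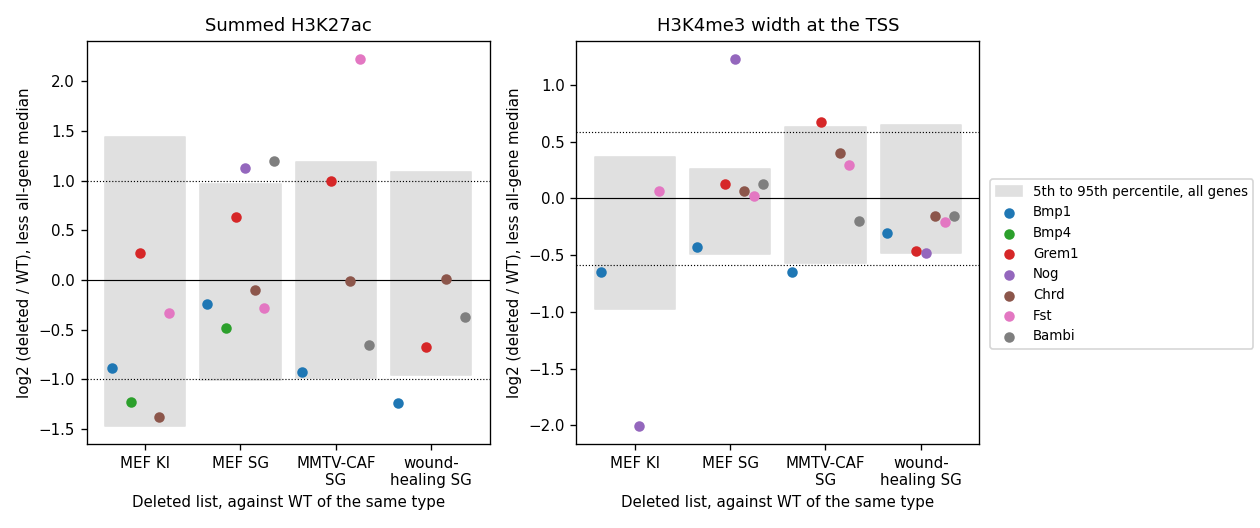
Log2 ratio of the deleted to the WT list less the all-gene median (y axis) for summed H3K27ac (left) and H3K4me3 width at the TSS (right), 1 coloured point per member listed in both lists. Grey bands span the 5th to the 95th percentile of all genes and dotted lines mark the calls at 2-fold and 1.5-fold. Bmp1 lies below 0 in all 8 columns, although its MEF SG sum of H3K27ac was above WT before centring, and Fst in MMTV-CAF SG is at 2.22. With 50 kb on each side the H3K27ac values of Bmp1 in MEF were -0.12 (KI) and -0.0025 (SG).

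The 3 WT lists were compared in the same way, which asks how the fibroblast types differ before any deletion. MMTV-CAF differ from the others in strain as well as in origin, and the strain and the type cannot be told apart. Against MEF, summed H3K27ac in MMTV-CAF was more than 2-fold higher at Bambi (centred log2 of 1.81) and Bmp1 (1.05), where 7.45% of genes were, and more than 2-fold lower at Fst (-2.39) and Nog (-2.04), where 7.71% were. Bmp4 was listed in MEF and not in MMTV-CAF (4.65% of listed genes). Grem1 was just under the 2-fold line (0.97). The Bmp1 call was lost within the gene body (0.61), with 50 kb on each side (0.84), at a -log10 p of at least 10 (0.87) and with lists of equal size (0.70). The Fst call was lost on the number of summits (-0.58) and had no ratio with lists of equal size, and Nog had none within the gene body. The Bambi value fell to 1.04 within the gene body and to 1.0, the call itself, on the number of summits.

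In wound-healing WT, Bambi (1.26), Grem1 (1.15) and Bmp1 (1.002, at the call itself) were at least 2-fold above MEF WT after centring, where 5.06% of genes were. Before centring their log2 ratios were lower by 0.54, and none passed 2-fold. On the gene body alone none passed either (0.63 at Bambi and Grem1, 0.64 at Bmp1), and with 50 kb on each side Grem1 (0.80) and Bmp1 (0.80) were under the call. Bmp4, Nog and Fst were listed in MEF WT and not in wound-healing WT (7.52% of listed genes). Between wound-healing and MMTV-CAF WT no member listed in both passed 2-fold, and Nog and Fst were listed in MMTV-CAF only (8.7%). These comparisons share the WT lists with each other and with the deletion comparisons.

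H3K4me3 widths were set beside each other between the WT lists in the same way. Bmp1 was wider in MMTV-CAF than in MEF (0.91, as 8.91% of genes were by 1.5-fold) and Fst narrower (-0.60, 5.6%), while the TSS region of Nog was not listed in MMTV-CAF (5.55% of listed genes). The Fst call rests on the all-gene median, since its raw widths were 4396 against 5052 bp (-0.20), and without centring Bambi passed 1.5-fold in its place (0.69). Grem1 was wider in wound-healing fibroblasts than in MEF (0.72, 4.89%), and the TSS region of Bmp2 was listed there and not in MEF (6.23% of unlisted genes). Between wound-healing and MMTV-CAF WT, Bmp1 was narrower (-0.59, 9.27%), Chrd (0.66) and Grem1 (0.59) were wider (6.36%), and Bmp2 and Nog were listed in wound-healing fibroblasts alone (9.18%). The Chrd and Grem1 calls rest on the all-gene median of -0.47, since their raw widths were 1589 against 1388 bp and 4968 against 4548 bp. Summed over the window, the Chrd value turned to -0.19 and the Bmp1 value was -0.46.

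A further list of 44 BMP pathway genes was read for context. Its median centred log2 of summed H3K27ac between deleted and WT lists was -0.07 in wound-healing SG, 0.09 in MMTV-CAF SG, -0.22 in MEF SG and 0.19 in MEF KI, over 31, 30, 30 and 25 genes listed in both. In these comparisons 1, 3, 3 and 5 of them were more than 2-fold lower, where 4.28%, 4.8%, 5.03% and 11.7% of all genes were, and 2 were higher in each, where 6.14%, 7.17%, 4.47% and 11% were. In wound-healing SG these were Bmp6, a ligand, and Bmper, a secreted modulator, both higher (1.57 and 1.20), and Id1, a target gene, which was lower (-1.23) and lay from 0.25 to 0.41 in the other deleted lists. Bmp6 was lower in MMTV-CAF SG (-1.19) and MEF KI (-1.20), and Bmper lay from -0.32 to -0.15 outside wound-healing SG. The largest changes in MMTV-CAF SG were at Tll1, a protease of the Bmp1 family (-1.67), Msx1, a homeobox target gene (1.56), and Acvr2a, a type II receptor (-1.23). Tll1 was also lower in MEF SG (-1.81), was at -0.59 in wound-healing SG and was not listed in MEF KI. Beside Tll1 in MEF SG stood Bmp3, a ligand (-1.59), and Id4, of the Id family (1.39). Bmpr1b, a type I receptor, had a sum of 252 in MEF WT and 6.02 in KI (-3.71), while wound-healing SG stood at 0.97 and MEF SG at -0.71. The next in MEF KI were Smad9 (-1.60) and Rgmb, a co-receptor (-1.46). Prrx1 summits were listed for 8 (18.2%), 14 (31.8%) and 14 (31.8%) of the 44 in MEF, MMTV-CAF and wound-healing fibroblasts, beside 7.05%, 22.1% and 16.8% of all genes. The list was chosen with earlier results known, so nothing is read from these shares. The genes with a summit in all 3 types included Gdf5, a ligand of joints, Acvr2a, Smad6, an inhibitory Smad, and Fstl1 and Pcolce, the latter an enhancer of Bmp1 activity on procollagen.

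Genes whose rank by summed H3K27ac ran most like a member's over the 7 lists were sought for the 5 members with summits in at least 5 lists, by the root mean square difference of their percentiles. The nearest were Pmel for Chrd (4.13 points), Fitm2 for Bambi (6.17), Mkln1 for Grem1 (7.33), Abcf1 for Bmp1 (9.12) and Col4a5 for Fst (9.16). Within 10 points lay 55 genes for Chrd and 83 for Bambi, against 4 for Bmp1, 7 for Grem1 and 1 for Fst, so the patterns of Chrd and Bambi were common ones and those of Bmp1, Grem1 and Fst were not. Bambi and Fst had summits in 6 lists, and Bmp1, Grem1 and Chrd in all 7.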

How the data were processed

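Per the labels and the study's methods, the authors used Trimmomatic, Bowtie (mm9) and MACS2 with input as control, 1 list per library. For Prrx1 the methods also name IgG as a control, and which control its lists used is not given in the sources used here. As deposited, each H3K27ac or Prrx1 entry is a summit of 1 bp scored by −log10 p, and each H3K4me3 entry is a broad region with its fold over input (a ratio), −log10 p, −log10 q and a MACS2 score that was not used. Whether a Prrx1 list pools duplicate ChIPs is not given in the sources used here. The methods give a p cutoff equal to a −log10 p of 5 for sharp peaks. The H3K27ac lists start there (5.00), while the Prrx1 lists reach down to 3.00, and their summits under 5 were kept. Depth is unknown, since the lists hold no read totals, and no interval could be given.

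Genes came from GENCODE vM1 on NCBIM37. Summits were summed over each gene with 10 kb on each side, the widest H3K4me3 region over any annotated TSS was taken, and log2 ratios between lists were centred on the median of all genes listed in both. A −log10 p grows with depth as well as enrichment, so sums compare libraries only relative to that median. Inputs (7 samples) were not used here. Groups came from the sample titles. The code for the ratios was checked on the MEF WT H3K27ac list with known factors multiplied in, without noise or lost summits. That check covers the arithmetic only and says nothing about the reported differences. The 8 members, the pathway list and the markers were chosen with earlier results of these data known. Named genes were the members, Prrx1, at most 3 called pathway genes per comparison by size, and the gene nearest in pattern. A pathway gene named only for its Prrx1 summit was chosen after its values were seen. Other windows, thresholds and scalings were tried. Python 3.11.15, numpy 2.4.6, pandas 2.3.3 and matplotlib 3.10.9 were used.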

Additional observations from a re-analysis of the deposited data

Results flagged for a closer look

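A set of 3 results stood out on the log2 scale less the all-gene median. All deleted lists of a fibroblast type had the opposite sign to those of another, and at least 1 of the values passed the call. Summed H3K27ac at Grem1 had such signs but stayed just under the call (0.999 in MMTV-CAF SG). With 1 library per group none of these differences was tested. Summed H3K27ac at Fst was higher in MMTV-CAF SG (2.22) and lower in MEF KI (-0.33) and MEF SG (-0.28), and it had no MMTV-CAF SG ratio with lists of equal size. The MEF SG value was 0.22 before centring and 0.415 on the number of summits, so no direction is read for MEF SG. The MEF KI sum at Fst came from 1 summit, 11831 bp from the first TSS. The H3K4me3 width at Grem1 was greater in MMTV-CAF SG (0.68) and smaller in wound-healing SG (-0.47). Summed H3K27ac at Chrd was lower in MEF KI (-1.37), while the SG values in wound-healing fibroblasts (0.01), MMTV-CAF (-0.01) and MEF (-0.10) were near 0, so no direction is read from their signs. The MEF KI sum at Chrd came from 1 summit, nearer to a start of Thpo than to that of Chrd.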

How the results depend on the processing

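No paired analysis was possible because every group has 1 library and the labels give no replicate numbers. Of 107 counts of members recomputed under the alternatives, 73 stayed within 1.5 times the reported count. Members with an H3K4me3 region at a TSS in MEF KI numbered 3, 0 at a −log10 p of at least 10 and 5 with regions within 1 kb. Members past 2-fold in H3K27ac numbered 2 (MEF KI), 2 (MEF SG), 1 (MMTV-CAF SG), 1 (wound-healing SG), 4 (MMTV-CAF against MEF), 3 (wound-healing against MEF) and 0 (wound-healing against MMTV-CAF). On the gene body alone MEF KI gave 1, MEF SG 1, MMTV-CAF SG 2, MMTV-CAF against MEF 2 and wound-healing against MEF 0. With 50 kb on each side MEF KI gave 0, MMTV-CAF SG 2, wound-healing against MEF 1 and against MMTV-CAF 1. A −log10 p of at least 10 gave 1 for MEF KI, and lists of equal size gave 2 for MMTV-CAF against MEF. The number of summits gave 2 for MMTV-CAF SG, 0 for wound-healing SG and 1 for wound-healing against MMTV-CAF. Sums as deposited, without centring, gave 5 for MEF KI, 2 for MMTV-CAF SG, 0 for wound-healing SG, 0 for wound-healing against MEF and 1 against MMTV-CAF. Members past 1.5-fold in H3K4me3 width numbered 2, 1, 2, 0, 2, 1 and 3 in the same order. Summed width over the window gave 1 for MEF KI, 0 for MEF SG, 1 for wound-healing SG, 4 for MMTV-CAF against MEF and 2 for wound-healing against MEF. A −log10 p of at least 10 gave 0 for MEF KI, and widths as deposited gave 1 for wound-healing against MMTV-CAF. Members with a Prrx1 summit in MMTV-CAF went from 2 to 4 with 50 kb and to 1 at the stricter −log10 p of 10, and in wound-healing fibroblasts from 3 to 0 on the gene body and to 1 at that threshold. Prrx1 summits with an H3K27ac summit within 500 bp went from 2 to 0 in MMTV-CAF and from 2 to 1 in wound-healing fibroblasts at 250 bp.

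Of 334 log2 ratios of single members, 290 stayed within 1.5-fold, and 2 called ones reversed. Alternatives that left a member with no ratio are not among the 334. Sums or widths as deposited and shares of the list total shift every ratio of a comparison by the same constant. They therefore say nothing about a single member, and all 36 widths as deposited and all 35 shares stayed. H3K27ac at Bmp4 in MEF KI was 0.85 with 50 kb on each side, and the width at Chrd between wound-healing and MMTV-CAF WT was -0.19 when summed over the window. Fst in MMTV-CAF SG, called at 2.22, had no ratio in lists of equal size, where its WT summits drop out. The causes of these changes were not tested. Depth is unknown, so an unlisted region may have been below detection.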

Other observations

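Among the 44 pathway genes, Inhba, which encodes the subunit of activin A that follistatin binds, had an H3K4me3 region at its TSS of 5355 (WT) and 12005 bp (SG) in MMTV-CAF, and of 2164 (WT) and 6973 bp (SG) in wound-healing fibroblasts. The centred log2 ratios were 1.22 and 1.51, and in MMTV-CAF SG 5.6% of all genes were wider by at least 1.5-fold. Summed H3K27ac at Inhba did not pass 2-fold, at 0.09 in MMTV-CAF SG, 0.24 in wound-healing SG, 0.92 in MEF KI and -0.04 in MEF SG. In MEF the region was 9000 (WT), 7672 (KI) and 8752 bp (SG) wide, with centred log2 ratios of 0.10 (KI) and 0.05 (SG), so the WT lists of the other two types were the narrow ones. Rgmb, a BMP co-receptor, went the other way in MMTV-CAF, from 12403 bp in WT to 4883 bp in SG (-1.29), where 4.81% of all genes were narrower by at least 1.5-fold. Each value rests on 1 library per group, and no test was possible.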
